A study of Mus musculus with 6 samples.

Results

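The amino acid transporters described here are the genes of solute carrier families 1, 3, 7, 36, 38 and 43 on the array, chosen by gene symbol and without reference to their levels. The symbol rule found 42 genes of 18193 with a probe set of a single symbol, and each gene is represented by its brightest probe set over 6 arrays. Of these genes, 40 encode carriers or carrier subunits. The other two, Slc7a6os and Slc36a1os, are transcripts from the opposite strand and are reported apart from the carriers. The 42 genes had 89 probe sets in all, and 22 of them had more than 1.

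Transcripts were measured in mouse bone marrow cells sorted for GFP, c-Kit and Sca-1 and for absence of lineage markers, the surface pattern of haematopoietic stem cells. Cells of the vector group carried an empty GFP vector. Cells of the BCR/ABL group expressed BCR/ABL, the fused kinase that drives chronic myeloid leukaemia, and came from untreated mice with that disease. Cells of the BCR/ABL imatinib group expressed BCR/ABL and came from such mice given imatinib, an inhibitor of the kinase. Each group had 2 arrays. The sources used here name no mouse strain, age, vector promoter or imatinib dose. They do not say that replicate arrays were made from different animals, so each p-value reflects the spread of these samples alone and that spread may be technical. The stated aim was to identify genes under BCR/ABL control in stem cells.

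Amino acids are charged or polar and cross membranes through carrier proteins. The light chains of SLC7 exchange amino acids for each other and reach the cell surface only when bound to a heavy chain of SLC3. By contrast, SLC1 and SLC38 carriers use the sodium gradient to concentrate amino acids, and some SLC36 carriers use protons. Dividing blood cells take up leucine, glutamine, cystine and arginine by these routes, and several of the genes are induced by ATF4, the transcription factor of the amino acid shortage response.

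Levels are given as log2(intensity + 16) after quantile normalization, on which 4 is the floor, and intensities are given as deposited. Levels of different genes are not compared, since probe sets differ in brightness. On each array between 44.5% and 46.8% of genes lay below an intensity of 100, and genes below 100 on all 6 arrays are called dim here because their values could not be told from background. Of the 42 members, 16 were dim (38.1%, against 40.8% of all genes), 26 reached 100 on at least 1 array, and 21 did so on all 6. Vector replicates were the least alike, with a correlation across probe sets of 0.971 against 0.99 in BCR/ABL and 0.985 with imatinib. In bulk samples fewer cells of a type and less RNA per cell cannot be told apart. Among stem cell markers, Kit, a gene of the sort, was at 10.71 and 11.06 for vector, 10.37 and 10.13 for BCR/ABL and 11.38 and 11.39 under imatinib, with no overlap between groups (difference -0.63 in BCR/ABL against vector, adjusted p = 0.29, and 1.13 for imatinib against untreated cells, adjusted p = 0.108, limma). Thy1 had 2.81 and -0.88 in those comparisons (adjusted p = 0.0705 and 0.239), and Flt3 had -1.08 and 1.36 (adjusted p = 0.392 and 0.202), also without overlap. Procr had 0.55 and 0.83 without overlap (adjusted p = 0.631 and 0.392), and Slamf1 had 0.24 and 0.44 with overlap (adjusted p = 0.896 and 0.766). Cd34 lay between 12.10 and 12.52 on the 6 arrays, and Sca-1 itself was not analysed here. With imatinib against vector all 6 of these markers were higher, with a median of 0.59, where all genes had 0.0. The part of these shifts in the values below was not tested. Of the 8 T and NK cell markers measured, 5 were dim on all arrays.

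Markers of some other cell types differed between the groups. The summed intensity of 10 mast cell and basophil markers was 16604 and 11339 in vector cells, 43029 and 42512 in BCR/ABL cells and 66046 and 56183 after imatinib, and none of them was dim. The summed intensity of 12 B cell markers was 34115 and 13492 for vector, 3099 and 4008 for BCR/ABL and 1690 and 5301 under imatinib, with Pax5 and Blk dim. The sums of 12 granulocyte markers overlapped between vector and BCR/ABL: 80695 and 51258 on the vector arrays, 79567 and 90813 on the BCR/ABL arrays and 86585 and 92036 on the imatinib arrays. Taken singly, 10 of the 12 were higher and 2 lower in BCR/ABL than in vector. Their median difference was 0.91, where all genes had 0.01. The vector replicates were far apart for some of them, such as Ltf with intensities of 3301 and 134. The part of these cells in the values below was not tested.

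**Figure D1:**
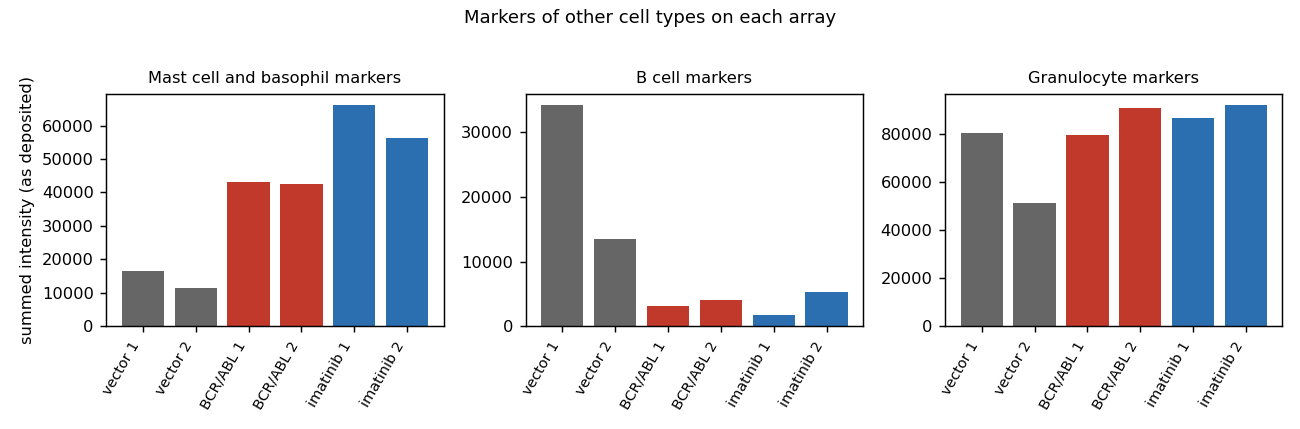
Summed deposited intensity (linear axis from 0) of 3 lists of marker genes on each of the 6 arrays, grey for vector, red for BCR/ABL and blue for BCR/ABL with imatinib. Mast cell and basophil markers summed to 16604 or less in vector and to 42512 or more on the other arrays, and B cell markers to 34115 and 13492 in vector and to 5301 or less elsewhere.

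Promoter sequence was set beside the levels because ATF4 acts through a short DNA element in some of these genes. RefSeq promoter windows of assembly GRCm38.p6, from 250 bases before to 50 after a start, were found for 31 of the 42 members, 42 windows in all. The core TGATGNAA of the amino acid response element, searched on both strands, was present in 4 of these windows (9.52%), belonging to Slc7a11, Slc1a4 and Slc7a7, and in 3.97% of all 32851 windows. The motifs were chosen after the levels had been seen, and a match is a description of letters, not a measured binding site. The sequences below run 5′ to 3′ along the gene, with each match in capitals. The first is the 150 bases upstream of Slc7a11, on the minus strand at chr3:50443614-50443763, where the core occurred on both strands within a short distance. The second is a 30-base stretch across the start of Slc1a4, on the minus strand at chr11:20332699-20332728. The others are 30-base stretches of Slc7a7, whose windows overlap and share the match at the start, also on the minus strand, at chr14:54418067-54418096 and across a start at chr14:54417927-54417956.
Slc7a11: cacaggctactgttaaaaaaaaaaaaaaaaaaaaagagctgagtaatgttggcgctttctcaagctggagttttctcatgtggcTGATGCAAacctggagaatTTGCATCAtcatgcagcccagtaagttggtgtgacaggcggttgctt
Slc1a4: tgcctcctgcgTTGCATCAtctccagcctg
Slc7a7, upstream: ccgcttgggctTGATGAAAggttcactggg
Slc7a7, start: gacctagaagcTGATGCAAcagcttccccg
The E-box CACGTG, a site bound by MYC and by the lysosomal regulator TFEB, was present in 7 of the 42 member windows (16.7%) and in 7.15% of all windows. Those 7 belonged to Slc1a6, Slc1a7, Slc36a1, Slc38a5, Slc38a7, Slc43a1 and Slc7a14. Slc36a1 held it at 31 and 3 bases before the start. Windows for Slc1a5, Slc7a2, Slc7a3, Slc7a4, Slc7a5, Slc7a12, Slc7a13, Slc36a2, Slc38a1, Slc38a3 and Slc43a3 were not analysed here.

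BCR/ABL cells were compared with vector cells to ask which carriers differ with the kinase. The cystine and arginine carriers Slc7a11 and Slc7a2, the LAT2 gene Slc7a8, and both chains of the LAT1 leucine exchanger, Slc7a5 and Slc3a2, were higher on both BCR/ABL arrays than on both vector arrays. The lysosomal amino acid sensor Slc38a9 was lower on both by its brightest probe set. No member passed the threshold over all genes. In limma with Benjamini-Hochberg adjustment over 35877 probe sets, 0 of 42 members had an adjusted p under 0.05, where 0.104% of all genes did, and the smallest adjusted p of a member was 0.0996. At an unadjusted p under 0.05, 7 members were higher (16.7%), where 7.16% of all genes were, and 5 were lower (11.9%), where 5.55% of all genes were. Scaled to equal array medians in place of quantile normalization, which moved the median of all genes by 0.2, the split was 9 higher and 1 lower. Of the 5 lower under quantile normalization, Slc1a2, Slc38a4 and Slc7a12 were dim and no direction is read from them. The median difference was -0.04 over the 42 members and 0.01 over all genes, with 20 members higher and 22 lower.

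The LAT1 exchanger brings in leucine and other large neutral amino acids and is built from the light chain Slc7a5 and the heavy chain Slc3a2, also known as CD98. The Slc7a5 level was 11.70 and 11.60 in vector cells, 12.45 and 12.34 in BCR/ABL cells and 11.92 and 11.19 after imatinib. The BCR/ABL arrays were the highest, and the vector and imatinib arrays overlapped. The difference between BCR/ABL and vector was 0.75, or 1.68-fold (SE 0.23, adjusted p = 0.344). Slc3a2 was at 11.31 and 11.14 for vector, 12.02 and 12.01 for BCR/ABL and 11.93 and 11.43 under imatinib, a difference of 0.79 between BCR/ABL and vector (SE 0.17, adjusted p = 0.248). Its imatinib arrays lay between the other two groups and overlapped neither. Slc3a1, the heavy chain of kidney and gut, stayed within 7.79 and 7.99 on the vector and BCR/ABL arrays. Its imatinib arrays were lower, at 7.27 and 7.65, without overlap. The imatinib difference was -0.48 from untreated BCR/ABL (adjusted p = 0.543, limma) and -0.43 from vector (adjusted p = 0.585, limma).

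Slc3a2 also carries other light chains. Slc7a8 encodes LAT2, which transports neutral amino acids of all sizes. Its deposited intensity was 273 and 184 on the vector arrays, 1572 and 1148 on the BCR/ABL arrays and 2144 and 1122 on the imatinib arrays. Both BCR/ABL groups were far above vector and overlapped each other. The log2 difference was 2.49 for BCR/ABL against vector, or 5.62-fold (SE 0.35, adjusted p = 0.113), and 2.71 for BCR/ABL with imatinib against vector (SE 0.35, adjusted p = 0.112). The call depended on the setting: with array medians in limma the adjusted p was 0.00361 for BCR/ABL and 0.00775 with imatinib, and a filter at the 30th percentile of mean level gave 0.027 and 0.0218. The summed mast cell and basophil markers given above were likewise higher on all 4 BCR/ABL and imatinib arrays than on the vector arrays.

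Slc7a11 encodes xCT, which imports cystine for glutathione synthesis in exchange for glutamate. Its level was 5.50 and 4.62 in vector cells, 7.56 and 7.44 in BCR/ABL cells and 5.75 and 4.91 after imatinib. The deposited intensity exceeded 100 on the BCR/ABL arrays alone. The difference of 2.44 (SE 0.48, adjusted p = 0.211) was computed from vector values near the floor, so its size depends on the added constant and ran from 1.48 to 3.29 over the alternatives that kept all arrays. The second probe set of Slc7a11 had the same sign at 1.57 but did not reach 100. With array medians the adjusted p was 0.0341.

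Slc7a6 encodes a light chain that exchanges basic for neutral amino acids. It was at 10.02 and 10.60 for vector, 10.81 and 10.72 for BCR/ABL and 10.43 and 10.10 under imatinib, a difference of 0.45 (adjusted p = 0.505) that was 0.17 without vector replicate 1. Its second probe set, which was also bright, gave 0.06. Slc7a7, its relative in gut and macrophages and the holder of core matches in its promoter windows, was at 8.55 and 7.22 in vector cells and at 7.77 and 7.26 in BCR/ABL cells, so the groups overlapped. The remaining light chains, Slc7a9, Slc7a10, Slc7a12, Slc7a13 and Slc7a15, were dim on all 6 arrays.

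**Figure D2:**
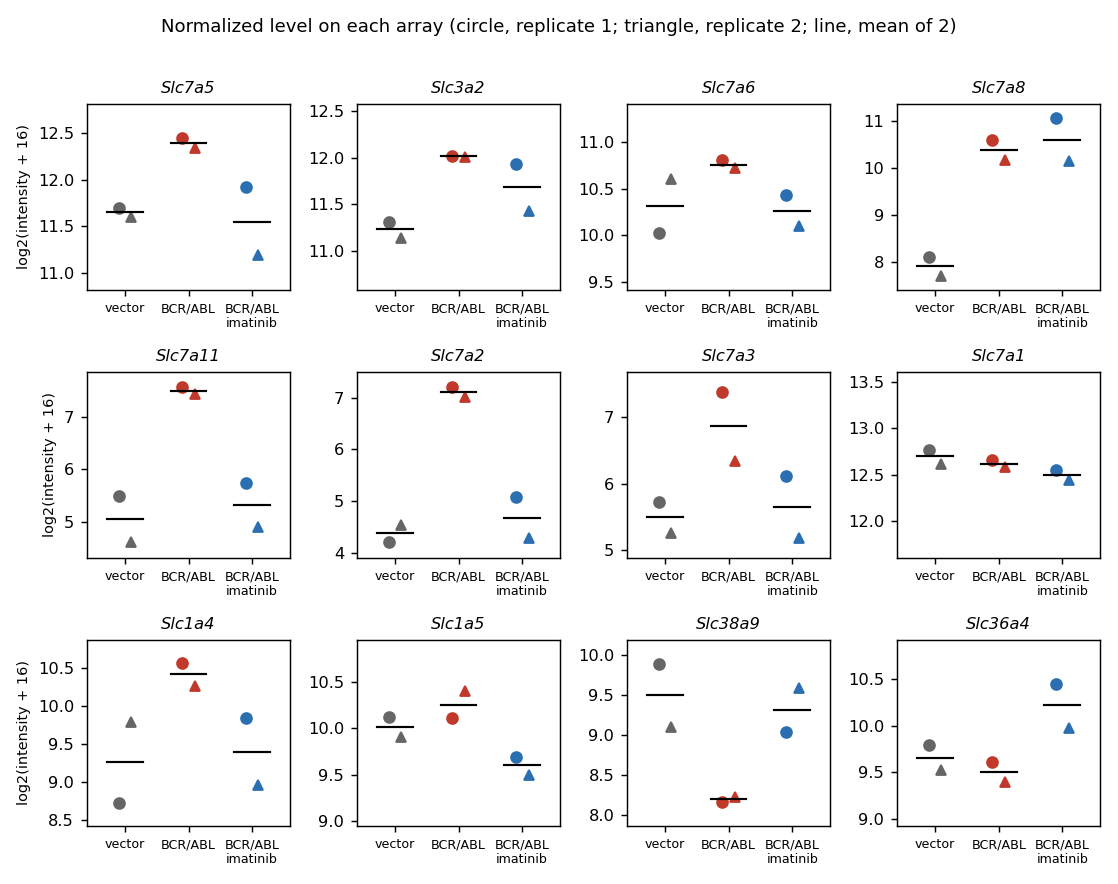
Level on the log2(intensity + 16) scale, after quantile normalization, of 12 amino acid transporter genes on each array, with circles for replicate 1, triangles for replicate 2 and a line at the mean of 2; each panel has its own vertical range. Slc7a5, Slc7a11 and Slc7a2 peaked in BCR/ABL, Slc7a8 was high in both BCR/ABL groups, and Slc38a9 was lowest in BCR/ABL, at 8.17 and 8.23.

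The cationic carriers move arginine and lysine without a heavy chain. Slc7a2, which supplies arginine to arginase and nitric oxide synthase in activated myeloid cells, had an intensity of 2.14 and 7.33 on the vector arrays, 113 and 107 on the BCR/ABL arrays and 19.0 and 4.28 on the imatinib arrays. The transcript was thus above 100 on the BCR/ABL arrays alone. Its difference was 2.74 (SE 0.36, adjusted p = 0.0996) and ran from 1.44 to 4.54 over the alternatives that kept all arrays. It passed with array medians (adjusted p = 0.008) and after a filter at the 30th percentile (adjusted p = 0.0276). That filter used the mean level over all arrays, which the high BCR/ABL arrays raised for Slc7a2, so its pass is no separate support. All 4 probe sets of Slc7a2 were higher in BCR/ABL, by 0.18 to 2.74, but only 1 reached 100. Slc7a3 had an intensity of 39.5 and 22.4 in vector cells and of 132 and 60.2 in BCR/ABL cells, a difference of 1.36 (SE 0.53, adjusted p = 0.421) that was 0.85 without BCR/ABL replicate 1 and 1.88 without BCR/ABL replicate 2.

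Slc7a1 encodes the main arginine carrier of most dividing cells. The level of its brightest probe set was 12.77 and 12.62 in vector cells, 12.66 and 12.58 in BCR/ABL cells and 12.55 and 12.45 after imatinib. The difference between BCR/ABL and vector was -0.07 (SE 0.08, adjusted p = 0.769). Its 3 probe sets disagreed, with differences from -0.07 to 0.43. The second bright one, with intensities from 1390 to 3125, gave 0.43 (adjusted p = 0.505) and, for imatinib against untreated BCR/ABL, -0.78 without overlap (adjusted p = 0.183), where the brightest gave -0.12. Slc7a4, a relative with no settled transport role, lay at 6.60 and 6.91 in vector cells and at 7.37 and 7.09 in BCR/ABL cells, and Slc7a14 was dim.

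Family 1 holds the glutamate carriers of the nervous system and the neutral amino acid exchangers ASCT1 and ASCT2. Slc1a4, the gene of ASCT1, which exchanges alanine, serine and cysteine, was at 8.73 and 9.79 for vector, 10.57 and 10.27 for BCR/ABL and 9.84 and 8.96 under imatinib. The vector arrays differed by more than 1 log2 unit, and the difference of 1.16 (SE 0.43, adjusted p = 0.404) became 0.63 when vector replicate 1 was left out and 1.68 when vector replicate 2 was. All 3 of its probe sets were higher in BCR/ABL. Slc1a5, the gene of the glutamine carrier ASCT2, lay at 10.12 and 9.90 in vector cells and at 10.11 and 10.40 in BCR/ABL cells, and the groups overlapped. The glutamate carriers Slc1a1, Slc1a2, Slc1a3, Slc1a6 and Slc1a7 were dim on all arrays.

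Sodium-coupled SLC38 carriers import glutamine and other small neutral amino acids, and Slc38a9 sits on the lysosome, where it signals arginine to mTORC1. Slc38a9 was at 9.89 and 9.10 on the vector arrays, 8.17 and 8.23 on the BCR/ABL arrays and 9.04 and 9.59 on the imatinib arrays. By this probe set, the brightest, the BCR/ABL arrays were the lowest. The difference between BCR/ABL and vector was -1.30, or 2.46-fold (SE 0.33, adjusted p = 0.293), and it became -1.68 when vector replicate 2 was left out and -0.92 when vector replicate 1 was. All 7 probe sets of Slc38a9 were lower in BCR/ABL, by 0.07 to 1.30, and their average gave -0.64. They disagreed in size: other bright probe sets gave -0.07, -0.19 and -0.27 with overlap between vector and BCR/ABL, and -0.88 and -1.19 without overlap. Slc38a9 was the one member among the 7 SLC38 genes that were not dim with an unadjusted p under 0.05 in this comparison.

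By their brightest probe sets, Slc38a1, Slc38a2 and Slc38a10 differed little between groups, but other probe sets of these genes differed more. Slc38a1, a system A carrier, lay between 12.54 and 12.79 on all arrays, with a difference of -0.13 that turned positive with array medians, Slc38a10 between 11.49 and 11.69, and Slc38a2, a carrier that amino acid shortage induces, between 11.17 and 11.65. Another probe set of Slc38a2 had intensities of 587 and 490 on the vector arrays and 281 and 357 on the BCR/ABL arrays. Its difference was -0.69 without overlap (adjusted p = 0.552, limma), while the remaining probe set of Slc38a2 gave 0.11 with overlap. For imatinib against untreated BCR/ABL, the less bright probe set of Slc38a1 gave -0.41 without overlap (adjusted p = 0.428, limma). The brightest gave 0.07 with overlap. The 7 probe sets of Slc38a10 ran from -0.74 to -0.01 in BCR/ABL against vector, and from -0.91 to 0.27 in imatinib against vector. The lowest values came from a probe set whose replicates were far apart, with intensities of 13.7 and 96.2 in BCR/ABL. Slc38a6 was at 8.43 and 8.34 in vector cells and at 7.55 and 8.37 in BCR/ABL cells. Slc38a7, a lysosomal glutamine exporter, was at 7.67 and 7.84 in vector cells and at 7.57 and 7.54 in BCR/ABL cells. Slc38a5, a glutamine exchanger, varied more within groups than between them: 9.16 and 7.14 in vector cells, 7.84 and 7.42 in BCR/ABL cells and 8.10 and 6.46 after imatinib. Slc38a3 and Slc38a4 were dim.

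The facilitative SLC43 carriers and the SLC36 carriers showed smaller differences. Slc43a2, the LAT4 gene for leucine and its relatives, was at 9.81 and 9.88 for vector, 9.25 and 9.37 for BCR/ABL and 9.43 and 9.79 under imatinib, a difference of -0.54 (SE 0.18, adjusted p = 0.377). Its 3 probe sets shared that sign. Slc43a1, the LAT3 gene, was at 7.93 and 7.67 in vector cells and at 7.44 and 7.12 in BCR/ABL cells (difference -0.52, adjusted p = 0.591). Slc43a3, whose product carries purine bases, was at 11.62 and 11.33 in vector cells and at 11.33 and 11.08 in BCR/ABL cells. Slc36a1, a lysosomal carrier of small amino acids, ranged from 8.28 to 9.33 and overlapped in all 3 comparisons. Slc36a2 and Slc36a3 were dim.

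**Figure D3:**
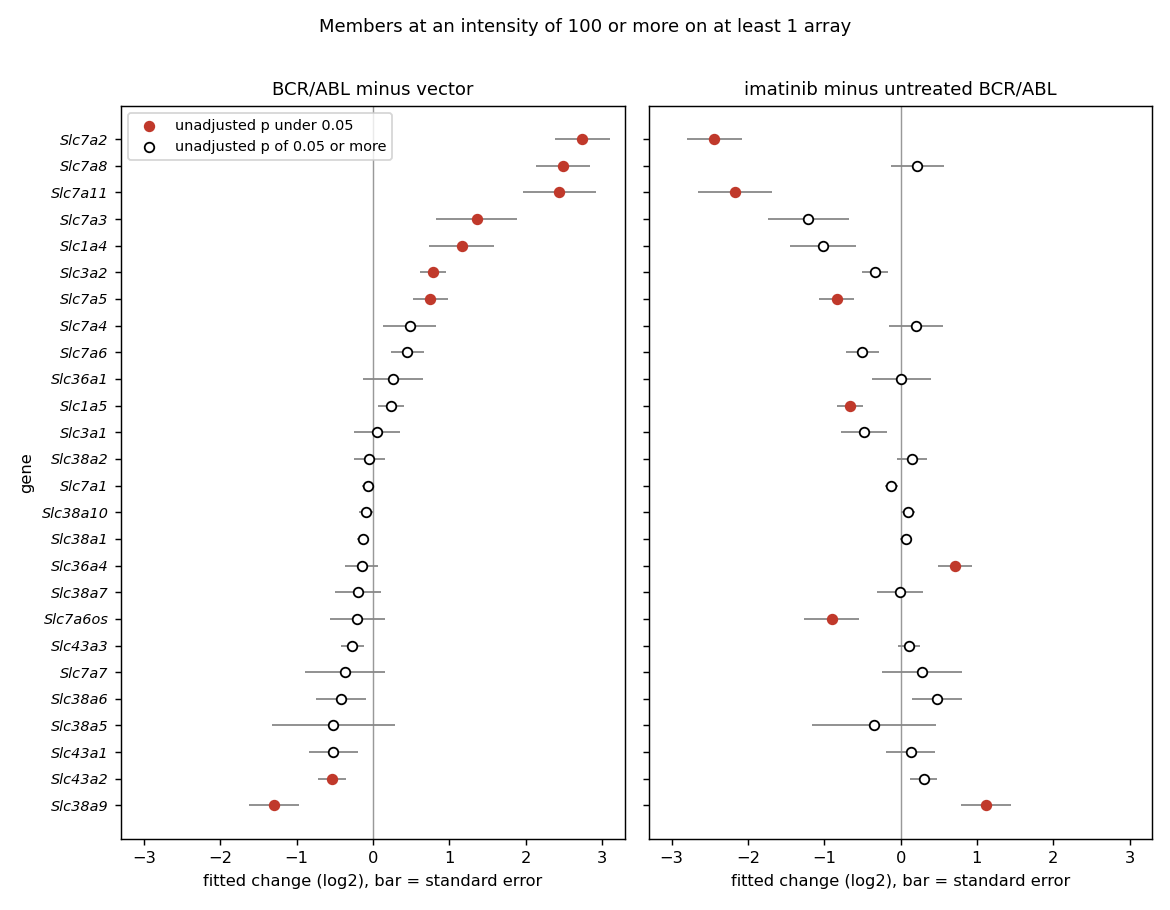
Fitted log2 difference, with its standard error from limma as a bar, of the 26 members that reached an intensity of 100 on at least 1 array, for BCR/ABL minus vector (left) and imatinib minus untreated BCR/ABL (right); red points have an unadjusted p under 0.05 and none has an adjusted p under 0.05. Slc7a2 had 2.74 on the left and -2.44 on the right, while Slc7a8 had 2.49 and 0.22.

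Imatinib was compared with no treatment in BCR/ABL cells to ask which transcripts differ when the kinase is inhibited. Slc7a2, Slc7a11, Slc7a5 and Slc1a5 were lower on both imatinib arrays than on both untreated arrays, Slc38a9 and Slc36a4 were higher, and Slc7a8 overlapped. In limma 0 of 42 members passed, as did 0.0% of all genes, with 0.108 as the smallest adjusted p of a member. At an unadjusted p under 0.05, 2 members were higher (4.76%), where 7.88% of all genes were, and 5 were lower (11.9%), where 9.13% of all genes were, so both shares lay near those of all genes. The split was 1 higher and 11 lower with array medians, a scaling that moved all genes by -0.27. The median difference was -0.03 over the members and -0.01 over all genes.

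This comparison shares the untreated BCR/ABL arrays with the first, so values that were high there tend to give a negative difference here, and each is given for itself. Slc7a2 had a difference of -2.44 (SE 0.36, adjusted p = 0.108) and Slc7a11 one of -2.17 (SE 0.48, adjusted p = 0.143). Both imatinib values of both genes were near the floor, so the sizes depend on the added constant. With array medians the adjusted p was 0.0183 for Slc7a2 and 0.0324 for Slc7a11, and after the filter at the 30th percentile it was 0.0465 for Slc7a2. The mean level behind that filter again included the BCR/ABL arrays, where Slc7a2 was high.

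For LAT1, the difference of Slc7a5 was -0.84, or 1.79-fold (SE 0.23, adjusted p = 0.185), and the adjusted p was 0.0314 with array medians. The difference was -1.21 without imatinib replicate 1 and -0.48 without imatinib replicate 2, since the imatinib arrays differed from each other. Slc3a2 had -0.33 (SE 0.17, adjusted p = 0.456), which was -0.59 without imatinib replicate 1 and -0.08 without imatinib replicate 2. Slc7a6 had -0.50 (adjusted p = 0.38), and -1.04 by its second probe set (SE 0.3, adjusted p = 0.208). Slc7a8 had 0.22 (SE 0.35, adjusted p = 0.847); whether the light chains differed from each other in their response was not tested.

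The glutamine carrier gene Slc1a5 was at 10.11 and 10.40 in BCR/ABL and at 9.69 and 9.50 with imatinib, and the imatinib arrays were the lowest of all 6. The difference was -0.66, or 1.58-fold (SE 0.17, adjusted p = 0.183), and the adjusted p was 0.0425 with array medians. Its second probe set, which did not reach 100, gave 0.14, and the average of both gave -0.26. Slc1a4 had -1.02 (SE 0.43, adjusted p = 0.357), and -0.58 without imatinib replicate 2. Slc7a3 had -1.21 (SE 0.53, adjusted p = 0.378), and -0.69 without BCR/ABL replicate 1.

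On the other side, Slc38a9 had a difference of 1.12, or 2.17-fold (SE 0.33, adjusted p = 0.211). Of its 7 probe sets, 6 shared that sign. For imatinib against vector the probe sets of Slc38a9 disagreed. The brightest gave -0.18, and other bright ones gave 0.04 and -0.03, all with overlap. The remaining bright ones gave 1.19, 1.08 and 1.2 without overlap (adjusted p = 0.334, 0.182 and 0.354, limma). The dim one gave -0.73 without overlap. Slc36a4, a carrier of proline and tryptophan, was at 9.79 and 9.52 on the vector arrays, 9.61 and 9.40 on the BCR/ABL arrays and 10.45 and 9.98 on the imatinib arrays. Its imatinib arrays were above the other 4, with a difference of 0.71 (SE 0.22, adjusted p = 0.222). Slc43a2 had 0.30 (adjusted p = 0.525), and 0.13 without imatinib replicate 2. Slc38a6 had 0.48 (adjusted p = 0.584), and 0.07 without BCR/ABL replicate 1.

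BCR/ABL cells with imatinib were also set against vector cells, which asks what remained different under treatment. In limma 0 of 42 members passed, where 0.0824% of all genes did. At an unadjusted p under 0.05, 3 members were higher (7.14%), where 9.0% of all genes were, and 4 were lower (9.52%), where 7.7% of all genes were. With array medians, which moved all genes by -0.09, the split was 1 higher and 5 lower. Under quantile normalization the 3 higher were Slc7a8, Slc36a4, with 0.56 (SE 0.22, adjusted p = 0.34), and Slc3a2, with 0.46 (SE 0.17, adjusted p = 0.336). Without imatinib replicate 1 these were 0.33 for Slc36a4 and 0.21 for Slc3a2. Of the 4 lower, Slc1a2, Slc38a4 and Slc7a12 were dim, and the other was Slc7a6os. The values of Slc7a5, Slc7a11 and Slc7a2 were -0.10 (SE 0.23), 0.27 (SE 0.48) and 0.30 (SE 0.36), and the imatinib and vector arrays of each of these genes overlapped.

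Variation between replicates limited several members. More than 1 log2 unit separated the vector replicates for 4 of 42 members, Slc1a4, Slc36a1, Slc38a5 and Slc7a7, where 9.7% of all genes were so far apart. In BCR/ABL this held for Slc7a3, and with imatinib for Slc38a5. The median gap between replicates was 0.27 for vector over the members, 0.23 for BCR/ABL and 0.36 under imatinib, where all genes had 0.25, 0.17 and 0.22.

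Genes of the amino acid response were examined because ATF4 controls several carriers. None of the 17 measured had an adjusted p under 0.05 in any comparison. At an unadjusted p under 0.05, 7 of 17 were higher and 0 lower in BCR/ABL against vector (where 7.16% of all genes were higher and 5.55% lower), with a median of 0.39. Against untreated cells, 2 were higher and 5 lower with imatinib (where 7.88% of all genes were higher and 9.13% lower), with a median of -0.32. Against vector, 3 were higher and 0 lower with imatinib, where 9.0% of all genes were higher and 7.7% lower. Atf4 itself was at 11.98 and 11.95 in vector cells, 12.33 and 12.32 in BCR/ABL cells and 11.94 and 11.89 after imatinib. The BCR/ABL arrays were above all others, by 0.36 over vector (SE 0.07, adjusted p = 0.221). Trib3, a target of ATF4 that dampens its activity, was at 5.65 and 5.72 for vector, 7.92 and 7.42 for BCR/ABL and 6.96 and 7.01 under imatinib. Atf3, another stress-induced factor, had 2.20 in BCR/ABL against vector (adjusted p = 0.31) and -2.52 with imatinib (adjusted p = 0.157). Ddit3, the stress factor CHOP, went another way, with 0.39 in BCR/ABL (adjusted p = 0.616) and 1.27 with imatinib (adjusted p = 0.132). Nupr1, a stress-induced chromatin protein, had 0.73 (adjusted p = 0.312) and -0.92 (adjusted p = 0.142) in those comparisons.

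**Figure D4:**
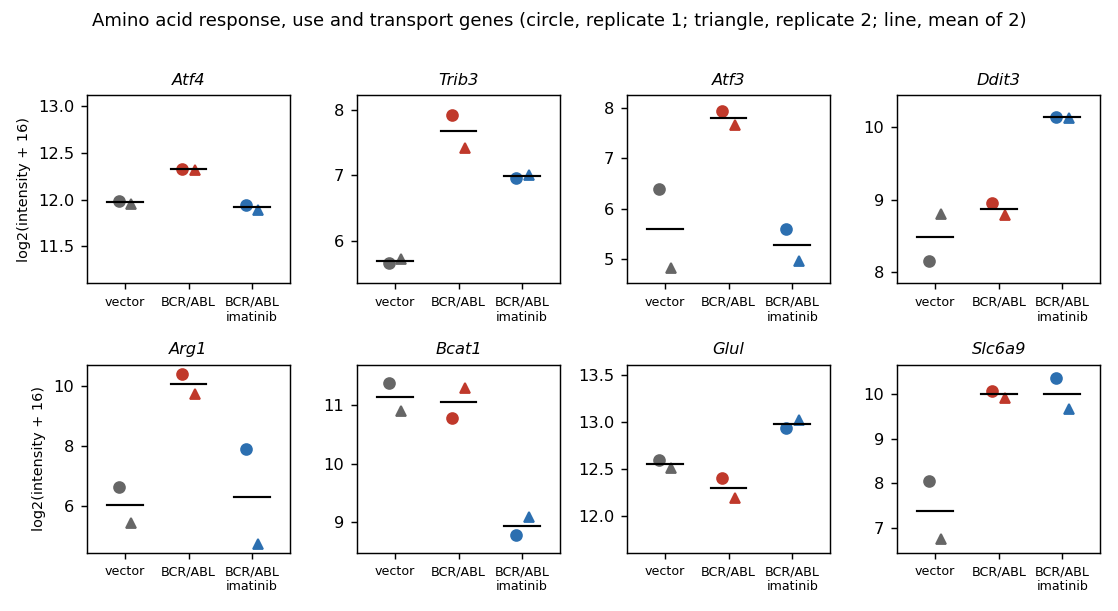
Level on the log2(intensity + 16) scale of 8 genes of the amino acid response and of amino acid use and transport on each array, with circles for replicate 1, triangles for replicate 2 and a line at the mean of 2; each panel has its own vertical range. Atf4 was highest in BCR/ABL, at 12.33 and 12.32, while Bcat1 was lowest with imatinib, at 8.77 and 9.09.

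Enzymes that use the imported amino acids gave 0 calls in limma among 17 measured in each of the 3 comparisons. At an unadjusted p under 0.05, 3 were higher and 1 lower in BCR/ABL against vector (where 7.16% of all genes were higher and 5.55% lower). With imatinib 1 was higher and 4 lower than in untreated cells (where 7.88% of all genes were higher and 9.13% lower). Arg1, the arginase of myeloid cells, was at 6.65 and 5.43 on the vector arrays, 10.41 and 9.74 on the BCR/ABL arrays and 7.90 and 4.75 on the imatinib arrays; the imatinib replicates were far apart. The difference of 4.03 between BCR/ABL and vector had SE 1.04 (adjusted p = 0.3). Bcat1, which starts the breakdown of branched-chain amino acids, was at 11.39 and 10.91 in vector cells, 10.79 and 11.30 in BCR/ABL cells and 8.77 and 9.09 after imatinib, a difference of -2.12 with imatinib (SE 0.25, adjusted p = 0.108). Bcat2, its mitochondrial relative, had -0.64 with imatinib (adjusted p = 0.148). Glul, which makes glutamine, had -0.26 in BCR/ABL against vector (adjusted p = 0.401) and 0.69 with imatinib (SE 0.09, adjusted p = 0.108). Arg2, the mitochondrial arginase, had 1.63 in BCR/ABL against vector (adjusted p = 0.367).

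The mTORC1 machinery that senses amino acids gave 0 calls in limma among 29 measured genes in each comparison. In BCR/ABL against vector 4 were higher and 5 lower at an unadjusted p under 0.05 (where 7.16% of all genes were higher and 5.55% lower), and 4 were higher and 3 lower with imatinib (where 7.88% of all genes were higher and 9.13% lower). The median difference was 0.0 in BCR/ABL against vector and -0.09 with imatinib. Rraga, a Rag GTPase that brings mTORC1 to the lysosome, was at 9.18 and 9.44 for vector, 10.29 and 10.05 for BCR/ABL and 9.44 and 9.39 under imatinib. Fnip1, a partner of folliculin, had 0.75 with imatinib (SE 0.09, adjusted p = 0.108), the GATOR2 subunit gene Sec13 had -0.51 (adjusted p = 0.121), and the leucyl-tRNA synthetase gene Lars had -0.60 (SE 0.11, adjusted p = 0.121).

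Other carriers of amino acids and peptides at the cell surface or in vesicles also gave 0 calls in limma among 19 measured in each comparison. Of these, 3 were higher and 2 lower in BCR/ABL against vector at an unadjusted p under 0.05 (where 7.16% of all genes were higher and 5.55% lower), but only 1 of the 3 higher was not dim. With imatinib 2 were higher and 3 lower (where 7.88% of all genes were higher and 9.13% lower), and 1 of the 3 lower was not dim. Slc6a9, the glycine carrier GLYT1, was at 8.05 and 6.74 on the vector arrays, 10.07 and 9.93 on the BCR/ABL arrays and 10.36 and 9.67 on the imatinib arrays. Both BCR/ABL groups were above vector, as for Slc7a8, with a difference of 2.61 in BCR/ABL (SE 0.46, adjusted p = 0.178) and 0.01 between imatinib and untreated cells. Slc15a2, a peptide carrier, was lowest in BCR/ABL and highest with imatinib, at 10.22 and 10.03 in vector cells, 8.93 and 8.74 in BCR/ABL cells and 11.08 and 11.62 after imatinib. The peptide carrier gene Slc15a1 was dim. Ctns, the lysosomal cystine exporter, had 0.74 with imatinib (adjusted p = 0.169).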

How the data were processed

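The deposited table holds linear array intensity values, which the authors made with Affymetrix Expression Console and MAS5, per the submitters' processing notes, without a version. The trimmed mean, with 2% removed at each end, was 500.0 on each array. The series text names a whole-transcript array, while the probe set names are those of the Mouse Genome 430 2.0 array. Of 45101 probe sets, 64 controls were left out, and the 35877 with a symbol were tested without a filter on low values. Values were taken as log2(intensity + 16) and quantile normalized, because array medians ran from 5.69 to 6.19. One limma 3.58.1 model in R 4.3.3 covered all 6 arrays (lmFit, eBayes with trend, 3 residual and 2.97 prior degrees of freedom). Tests were two-sided, adjusted by Benjamini-Hochberg with 0.05 as threshold. The fit was tested on simulated data. Each gene is named in the text by membership or, in related lists, by the 3 smallest p-values in each of the first 2 comparisons; stem cell markers were named after their values were seen. The members and lists were chosen with earlier results of these data known. The number of arrays limits the precision. Alternatives were other constants, scalings, filters, variance priors, probe set averaging, a replicate block, the compared arrays alone, and each array left out.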

Additional observations from a re-analysis of the deposited data

How the results depend on the processing

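The counts of members past an adjusted p under 0.05 were 0 in the 3 comparisons and remained 0 when any 1 array was left out, with either other variance prior, with the compared arrays alone, with a gene's probe sets averaged, without normalization between arrays, and with an added constant of 64. With array medians, limma called 3 members in BCR/ABL against vector (Slc7a2, Slc7a8, Slc7a11), 4 with imatinib against untreated BCR/ABL (Slc7a2, Slc7a5, Slc7a11, Slc1a5) and 1, Slc7a8, in BCR/ABL with imatinib against vector; this scaling moved the median of all genes by 0.2, -0.27 and -0.09. With the 30th percentile filter the counts were 2, 1 and 1, with the 50th percentile filter 1, 0 and 1, and with an added constant of 1 they were 0, 0 and 1. Both filters used the mean level over all 6 arrays, to which a high group contributes, and took low-level members out of the test. The counts at an unadjusted p under 0.05 were 12 in BCR/ABL against vector and 7 in each of the others. The first went to 6 with the 50th percentile filter, where low-level members were no longer counted, and the second to 12 with array medians. Leaving out 1 array gave 9 to 12, 5 to 9 and 5 to 8. Correlations of same-numbered deviations were weak, at -0.08, 0.16 and 0.146, which does not settle whether the replicate numbers pair the samples. The replicate block gave 0 calls and 12, 7 and 9 members at an unadjusted p under 0.05. Over the alternatives other than leaving out an array, the median difference ran from -0.09 to 0.15, from -0.28 to 0.07 and from -0.15 to -0.04. No named member with an unadjusted p under 0.05 turned its sign in any of these alternatives, but most of them could hardly turn one. The groups of these members did not overlap, so leaving out 1 array keeps the sign apart from renormalization. The block, variance prior and filter settings leave the fitted difference unchanged. Values of genes below 100 cannot be separated from background at this signal.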

Other observations

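The 9 mitochondrial carriers of amino acids, which were measured on the same arrays, gave 0 calls in limma in the 3 comparisons. At an unadjusted p under 0.05 there were 0 in BCR/ABL against vector (where 7.16% of all genes were higher and 5.55% lower). With imatinib 1 was lower than in untreated cells (where 7.88% of all genes were higher and 9.13% lower). Against vector, 1 was lower with imatinib (where 9.0% of all genes were higher and 7.7% lower). Slc25a13, the aspartate and glutamate exchanger citrin, was at 10.71 and 10.83 for vector, 10.76 and 11.05 for BCR/ABL and 9.98 and 10.35 under imatinib. Its imatinib arrays were the lowest of all 6, with a difference of -0.74 from untreated BCR/ABL (adjusted p = 0.157, limma). Slc25a22, a glutamate carrier, had -0.53 (adjusted p = 0.409) and Slc25a15, the ornithine carrier, -0.31 (adjusted p = 0.42). In BCR/ABL against vector, Slc25a12, the other aspartate and glutamate exchanger, had 0.26 (adjusted p = 0.579), and Slc25a29 was dim.

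Of the opposite-strand transcripts that the symbol rule took in, Slc36a1os was dim on all arrays. Slc7a6os, the transcript opposite Slc7a6, was at 8.42 and 8.17 on the vector arrays, 7.75 and 8.41 on the BCR/ABL arrays and 6.96 and 7.41 on the imatinib arrays. The imatinib arrays were the lowest, with a difference of -1.11 from vector (SE 0.36, adjusted p = 0.279) and -0.90 from untreated BCR/ABL (SE 0.36, adjusted p = 0.328; -0.57 without BCR/ABL replicate 2), and both of its probe sets had that sign. That the signal comes from the opposite strand rests on the annotation of the probe sets.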
